A study of Homo sapiens with 6 samples.

Results

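The genes of the human proteasome were read in RNA from LoVo cells, an established human colorectal cancer line. Members were every row of the count table that the annotation names as a protein-coding gene with a symbol made of PSMA, PSMB, PSMC, PSMD, PSME, PSMF or PSMG and a number. There were 47 such genes among 63677 rows, of which 43 had enough reads to be tested. They comprise 8 genes of the 20S alpha ring, 6 of the constitutive 20S beta ring, 4 beta subunits found in specialised proteasomes (inducible beta genes below), 6 ATPases and 11 other subunits of the 19S particle, 7 assembly chaperones, and 5 activators or inhibitors. *PSMB3*, which encodes a constitutive beta subunit, was not analysed here.

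The proteasome is the protease that degrades most proteins tagged with ubiquitin in the cytosol and nucleus. Its 20S core is a stack of rings in which the outer alpha rings form the gate and the inner beta rings carry the active sites. The 19S particle caps the core, binds ubiquitin, removes it, and uses a ring of ATPases to unfold the substrate and feed it into the gate. When cells see interferon gamma, the active beta subunits encoded by *PSMB5*, *PSMB6* and *PSMB7* can be replaced by those of *PSMB8*, *PSMB9* and *PSMB10*, and the PA28 activator encoded by *PSME1* and *PSME2* can take the place of a 19S cap. This immunoproteasome is known for making peptides that MHC class I presents. Amounts of core subunit mRNA are known to rise together when the proteasome is inhibited, through the transcription factor encoded by *NFE2L1*.

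RNA was sequenced from 3 scramble libraries and 3 *SNHG15* siRNA libraries. The scramble cells received a negative control siRNA and the others a combination of both siRNAs against *SNHG15*, a long noncoding RNA that hosts a small nucleolar RNA, at 25 nM for 48 h with a lipid reagent. All cells were thus transfected LoVo cells of 1 line, and since the siRNAs were pooled, an effect of either one cannot be told apart. No untransfected library was analysed here. The methods call the libraries biological replicates.

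The targeted gene was checked first. *SNHG15* had 290, 277 and 261 CPM (counts scaled to library size) in scramble replicates 1 to 3 and 77.2, 83.1 and 87.2 CPM in the siRNA libraries, so 29.9% of the scramble level remained. The log2 fold change was -1.74 (SE 0.12, adjusted p = 2.62e-05 in edgeR), and a two-sided exact permutation test gave p = 0.1, the smallest that 3 against 3 libraries allow. Library totals ranged from 3446922 counts, in scramble replicate 3, to 10256710. On the first principal component, with 46% of the variance, siRNA replicate 1 lay farthest out at 39.1, against 14.3 and 11.5 for the other siRNA libraries. Of 8 colorectal epithelial markers, *KRT8* (41.6 to 68.3 CPM), *KRT18*, *CDX2* and *CDH1* (3.05 to 8.55 CPM) were read in every library. *VIL1* was at 0 counts, *EPCAM* and *CEACAM5* reached at most 1 count and *LGALS4* at most 4 counts in any library, so defining markers of the labelled epithelial line were absent from the counts. Summed markers of fibroblasts, leukocytes and endothelium reached at most 1.25 CPM.

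The proteasome genes differed little between the conditions. In the quasi-likelihood test of edgeR, adjusted by Benjamini-Hochberg over 12507 genes, 0 of 43 members passed an adjusted p of 0.05, where 5.36% of all genes did (392 higher, 279 lower). At an unadjusted p under 0.05, 6 of 43 members passed, against 22.5% of all genes. DESeq2, which the methods of the study name for differential expression, called 3 members lower (*PSME4*, *PSME1* and *PSMB9*), where it called 2.9% of 13118 genes lower. The median log2 fold change was -0.04 over the members and 0.00 over all genes. Without regard to sign, the median change was 0.14 for members and 0.22 for all genes, but members were also read more deeply, with a median level of 7.59 on the log2 CPM scale against 4.56. The siRNA libraries all lay below the scramble libraries for 7 of 43 members, against 14.1% of all genes, and all above for 4 of 43 members, against 14.7%. In either direction such separation was seen for 28.8% of all genes.

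The precision of these values bounds how large a missed change could be for most members, but not for all. For 31 of 43 members the 95% interval of the log2 fold change lay within 0.5 of 0. Other intervals reached down to -1.20 for *PSMA2* and -1.145 for *PSMB9*, and up to 1.94 for *PSMC1*. The share of all genes with an interval within 0.5 of 0 was not counted. The members together took 1.24%, 1.25% and 1.3% of the raw counts in scramble replicates 1 to 3. In siRNA replicates 1 to 3 they took 1.3%, 1.31% and 1.31%, so this share, without TMM factors, was not lower with siRNA. In bulk RNA, fewer cells and less RNA per cell cannot be told apart.

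**Figure D1:**
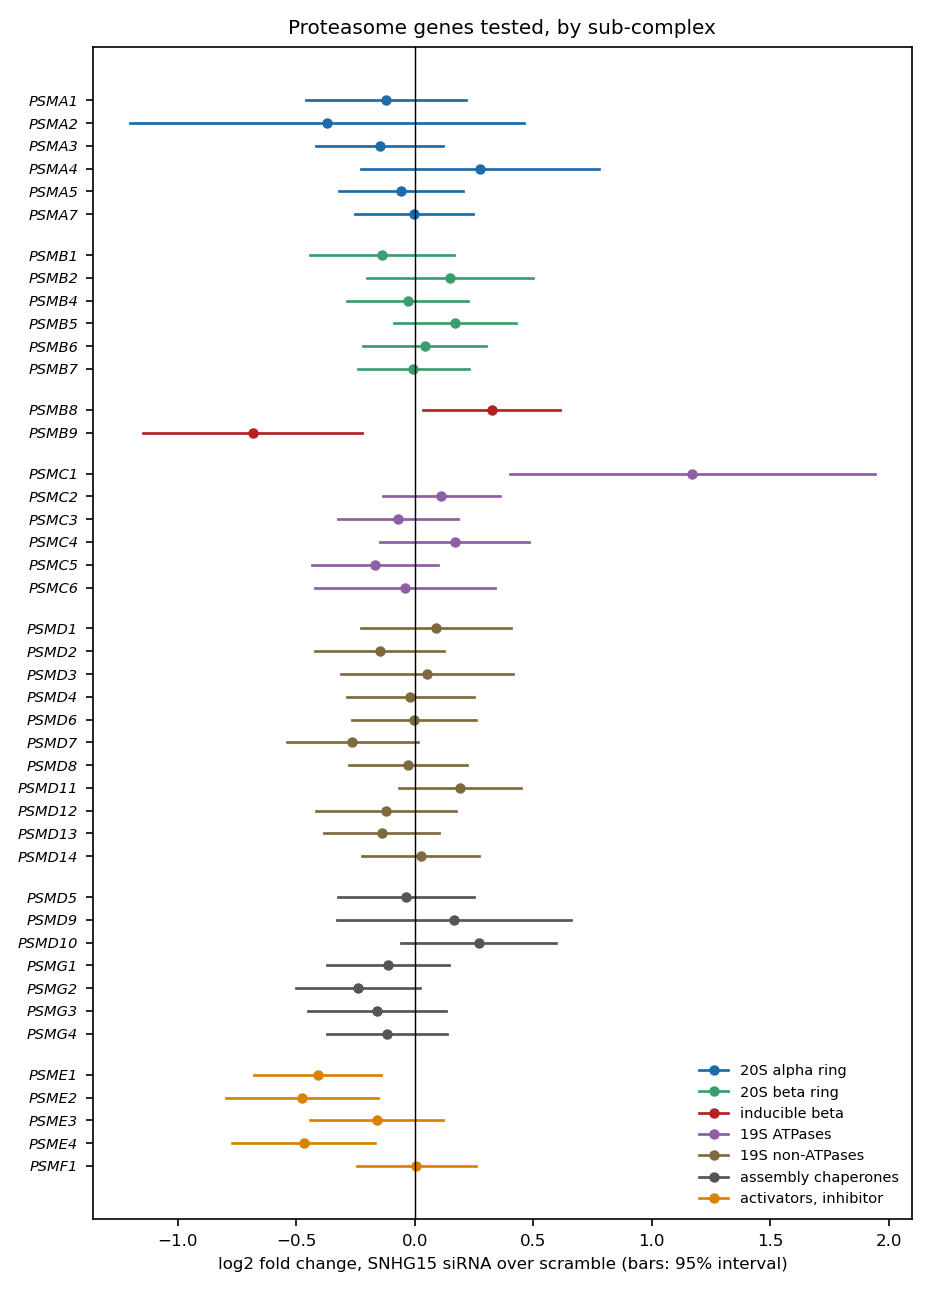
Log2 fold change of each of the 43 tested members (points) with its 95% interval (bars), grouped and coloured by sub-complex. Most points lie near 0, and the intervals that leave out 0 belong to *PSME4*, *PSME1*, *PSME2* and *PSMB9* on the lower side and to *PSMC1* and *PSMB8* on the higher side, none of which passed an adjusted p of 0.05.

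The activators stood lowest of the sub-complexes. *PSME4*, which encodes the PA200 activator of nuclear proteasomes, had 84.1, 87.0 and 70.2 CPM in scramble replicates 1 to 3 and 62.7, 62.3 and 50.5 CPM in the siRNA libraries. All siRNA values lay under all scramble values. Its log2 fold change was -0.47 (SE 0.14, adjusted p = 0.0685 in edgeR's quasi-likelihood test), the smallest p among the members. *PSME1*, the alpha subunit of PA28, had 333, 347 and 389 CPM with scramble and 269, 244 and 292 CPM with *SNHG15* siRNA. The conditions did not overlap. The log2 fold change of *PSME1* was -0.41 (SE 0.12, adjusted p = 0.0732 from edgeR). *PSME2*, the beta subunit of PA28, had 58.5, 61.2 and 76.8 CPM with scramble and 52.5, 45.2 and 42.6 CPM with *SNHG15* siRNA, again without overlap. Its log2 fold change was -0.47 (SE 0.15, adjusted p = 0.0795 from edgeR).

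Both PA28 genes lie on chromosome 14, *PSME1* from 24605372 to 24608176 on the plus strand and *PSME2* from 24612571 to 24616779 on the minus strand of GRCh37, 4394 bp apart. Their ratio per kilobase of exon, *PSME2* over *PSME1*, was 0.0908 ± 0.00615 (SD, n = 3) with scramble and 0.0871 ± 0.0129 (SD, n = 3) with siRNA, a difference smaller than the spread between libraries. With canonical transcript length the ratios were 0.223 and 0.214. The transcript of *PSME2* shares 47.7% of its 31-base words with other places in the genome, and reads of the gene and of a copy may not be told apart there. Of its processed copies *PSME2P2* was read most, with 13.4, 11.3 and 15.1 CPM with scramble and 10.3, 7.77 and 9.63 CPM with siRNA, without overlap. The log2 fold change of *PSME2P2* was -0.50 (SE 0.19, adjusted p = 0.145 from edgeR), close to the -0.47 of *PSME2*. The other copies tested, *PSME2P1*, *PSME2P3* and *PSME2P6*, overlapped between the conditions, with log2 fold changes of -0.26, -0.09 and 0.13. The part of the copies in the *PSME2* value was not tested. No such word of *PSME1* was found elsewhere.

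The remaining genes of this group gave values near the scramble level. *PSME3*, which encodes the homomeric nuclear activator PA28 gamma, had 205, 198 and 242 CPM with scramble and 211, 189 and 174 CPM with siRNA, and the conditions overlapped (log2 fold change -0.16, 95% interval -0.44 to 0.12). *PSMF1*, the PI31 regulator first described as an inhibitor of the core, had a log2 fold change of 0.01 (95% interval -0.25 to 0.26). Summed over the 5 genes, the level was 879 ± 52.3 CPM (SD, n = 3) with scramble and 728 ± 36.2 CPM (SD, n = 3) with siRNA, or 82.8% of scramble. No other sub-complex sum was as low against scramble, with TMM factors or with library totals.

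Calls of these genes were close to the threshold and moved with the processing. The adjusted p of *PSME4* ranged from 0.0260 to 0.0878 over 9 alternatives that kept all libraries, that of *PSME1* from 0.0331 to 0.106, and that of *PSME2* from 0.0311 to 0.127 (edgeR and DESeq2). With a library left out, edgeR's adjusted p reached 0.251 for *PSME4*, 0.237 for *PSME1* and 0.234 for *PSME2*. Without a filter on low counts, edgeR called all of these and *PSMB9* lower and *PSMC1* higher, 5 members in all, where 5.54% of 23675 genes were called. Without siRNA replicate 1, edgeR called 3 members lower (*PSME4*, *PSME2* and *PSMB9*), where it called 3.02% of 12803 genes lower. Without siRNA replicate 3 it called *PSMC1* alone, higher, where it called 3.27% of 12607 genes higher.

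The inducible beta genes read on opposite sides of scramble, and neither passed the test. *PSMB9*, whose product (LMP2) replaces that of *PSMB6*, had 29.1, 25.1 and 43.2 CPM in scramble replicates 1 to 3 and 24.7, 16.5 and 17.9 CPM with *SNHG15* siRNA. No siRNA library reached the lowest scramble library, although siRNA replicate 1 stayed under scramble replicate 2 by less than 1 CPM. The log2 fold change was -0.68 (SE 0.21, adjusted p = 0.0797 from edgeR), with adjusted p between 0.00303 and 0.0996 over 9 alternatives that kept all libraries. Left-out libraries moved the log2 fold change of *PSMB9* to between -0.86 and -0.46, with edgeR's adjusted p between 0.0229 and 0.232. The weakest value came without scramble replicate 3. *PSMB8*, whose product (LMP7) replaces that of *PSMB5*, had 110, 83.5 and 89.5 CPM with scramble and 126, 118 and 110 CPM with siRNA. Here the siRNA libraries all lay above the scramble libraries, by less than 1 CPM for the closest pair. The log2 fold change of *PSMB8* was 0.32 (SE 0.13, adjusted p = 0.173 from edgeR), and no alternative called it.

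*PSMB8* and *PSMB9* are neighbours in the MHC class II region of chromosome 6, from 32808494 to 32812456 on the minus strand and from 32811913 to 32827628 on the plus strand of GRCh37. Their annotated spans overlap by 544 bp, but no base of either canonical transcript lies under exons of another counted gene. Per kilobase of exon, *PSMB9* over *PSMB8* was 0.277, 0.313 and 0.504 with scramble and 0.204, 0.146 and 0.169 with siRNA. The ranges did not overlap, and scramble replicate 3 stood highest. The ratio of *PSMB9* to its constitutive partner *PSMB6* was 0.0294 ± 0.0069 with scramble and 0.0174 ± 0.00268 with siRNA (SD, n = 3). The ratio of *PSMB8* to *PSMB5* was 0.137 ± 0.0226 with scramble and 0.152 ± 0.00859 with siRNA, and these ranges overlapped. With canonical transcript length, *PSMB9* over *PSMB6* was 0.055 and 0.0326, and *PSMB8* over *PSMB5* was 0.286 and 0.318. No test was made of the ratios.

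The other genes of this class were at or near the detection limit. *PSMB10*, the inducible counterpart of *PSMB7*, had 1, 2 and 1 counts with scramble and 3, 2 and 5 with siRNA, and was not tested. A share of 56.1% of its canonical transcript lies under exons of another gene on the same strand, which had between 1 and 6 counts. *PSMB11*, the beta subunit of cortical thymic epithelium, had 0 counts in every library, which allows a level of up to 0.298 CPM in the deepest library and up to 0.905 CPM in the shallowest (3 counts per library, counting error only).

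**Figure D2:**
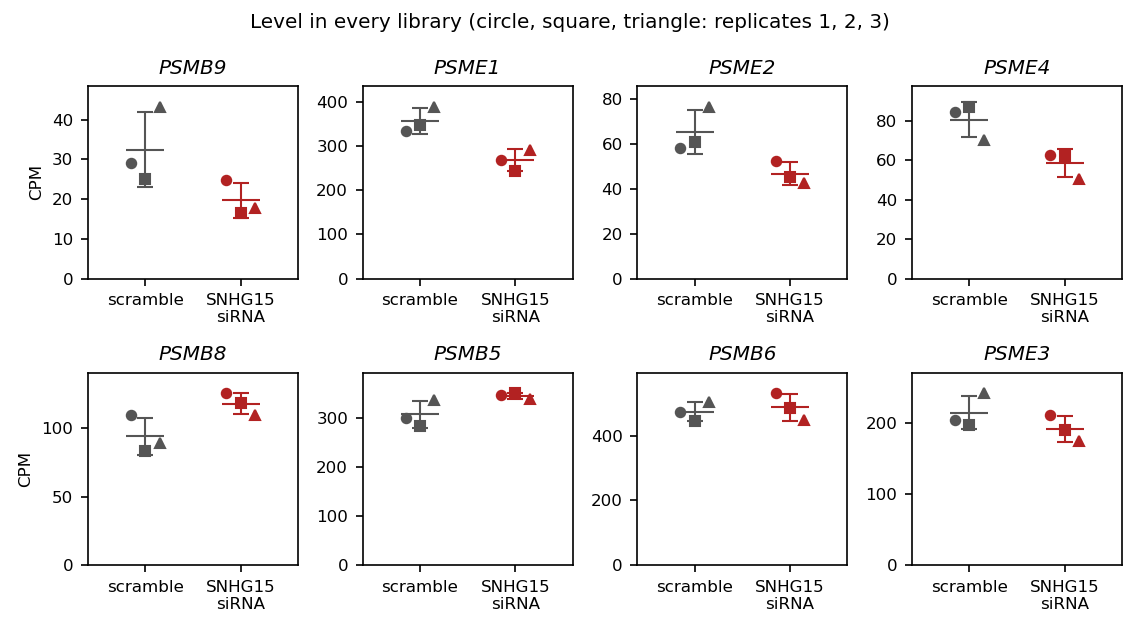
CPM of 8 genes in every library, scramble in grey and *SNHG15* siRNA in red, with the mean and SD of 3 libraries as bars and replicates 1 to 3 as circle, square and triangle. *PSMB9*, *PSME1*, *PSME2* and *PSME4* are lower in every siRNA library than in any scramble library, *PSMB8* and *PSMB5* are higher, and *PSMB6* and *PSME3* overlap.

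The constitutive beta ring gave values close to scramble. *PSMB5*, whose product carries the chymotrypsin-like site, had 301, 284 and 337 CPM with scramble and 347, 351 and 339 CPM with *SNHG15* siRNA. The siRNA libraries lay above, by under 2 CPM for the closest pair, and the log2 fold change was 0.17 (95% interval -0.09 to 0.43). *PSMB6*, which carries the caspase-like site, had 474, 445 and 502 CPM with scramble and 531, 485 and 447 CPM with siRNA. The conditions overlapped (log2 fold change 0.04, 95% interval -0.22 to 0.30). *PSMB7*, which carries the trypsin-like site, had 1376, 1389 and 1459 CPM with scramble and 1370, 1456 and 1383 CPM with siRNA (log2 fold change -0.01, 95% interval -0.24 to 0.23). *PSMB2*, a beta subunit without an active site and the lowest of the ring per length, had 386, 285 and 425 CPM with scramble and 432, 334 and 445 CPM with siRNA, with overlap (log2 fold change 0.15, 95% interval -0.20 to 0.50). *PSMB1* and *PSMB4*, also without an active site, had log2 fold changes of -0.14 and -0.03. All 6 intervals lay within 0.5 of 0, and the summed level was 4014 ± 323 CPM with scramble and 4035 ± 94.0 CPM with siRNA (SD, n = 3).

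In the alpha ring, 6 of 8 genes were tested and none passed. *PSMA7*, the member with the highest CPM in every library, had 2075, 1996 and 2154 CPM with scramble and 1859, 2251 and 2100 CPM with siRNA. The conditions overlapped, with a log2 fold change of -0.00 (95% interval -0.25 to 0.25). *PSMA1*, *PSMA3* and *PSMA5* had log2 fold changes of -0.12, -0.15 and -0.06, and their intervals lay within 0.5 of 0. *PSMA2* and *PSMA4* were read too thinly for that, with log2 fold changes of -0.37 (95% interval -1.20 to 0.46) and 0.27 (95% interval -0.23 to 0.78). *PSMA6* had 2, 1 and 1 counts with scramble and 8, 5 and 3 counts with siRNA, under the filter for testing. *PSMA8*, the testis form of an alpha subunit, had 0 counts in every library, with the same limits as *PSMB11*.

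Among the 19S ATPases, which form the unfolding ring, *PSMC1* had the largest fold change of any member tested. It had 19, 33 and 9 counts in scramble replicates 1 to 3 and 71, 37 and 32 counts in the siRNA libraries, or 2.23, 3.28 and 2.72 CPM against 9.84, 5.32 and 3.76 CPM. All siRNA values lay above all scramble values, and siRNA replicate 1 stood apart from the other siRNA libraries. The log2 fold change was 1.17 (SE 0.36, adjusted p = 0.0732 from edgeR). Left-out libraries moved it to between 0.69 and 1.45, and the adjusted p from edgeR and DESeq2 was 0.00340 to 0.0831 over 8 alternatives that kept all libraries. *PSMC1* shares sequence with other genes. Exons of other genes, above all *NRDE2* on the opposite strand, cover 83.2% of the canonical *PSMC1* transcript, and 42.4% of its 31-base words occur elsewhere. Its processed copy *PSMC1P1* had 0.352, 1.69 and 0.605 CPM with scramble and 5.54, 3.16 and 1.64 CPM with siRNA, so that siRNA replicate 1 was highest for both. The part of the copy in the *PSMC1* value was not tested.

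The other ATPases were close to scramble. *PSMC3*, the highest per kb of annotated exon, had 197, 212 and 211 CPM with scramble and 214, 187 and 189 CPM with siRNA, with overlap (log2 fold change -0.07, 95% interval -0.33 to 0.18). *PSMC2*, *PSMC4*, *PSMC5* and *PSMC6* had log2 fold changes of 0.11, 0.17, -0.17 and -0.04, and all 4 intervals lay within 0.5 of 0.

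Of the 19S genes that are not ATPases, 0 of 11 passed. *PSMD2*, a scaffold of the base and the highest of them per kb of annotated exon, had 1141, 1324 and 1113 CPM with scramble and 1122, 1160 and 950 CPM with siRNA. The conditions overlapped (log2 fold change -0.15, 95% interval -0.42 to 0.13). *PSMD1*, the other large scaffold of the base and the lowest per kb of annotated exon, had 139, 135 and 162 CPM with scramble and 186, 144 and 133 CPM with siRNA, with the highest and the lowest library both among the siRNA samples. *PSMD7*, a lid subunit that pairs with the deubiquitinase *PSMD14*, had 129, 141 and 131 CPM with scramble and 98.3, 110 and 126 CPM with siRNA (log2 fold change -0.26, SE 0.13, adjusted p = 0.241 from edgeR). *PSMD11*, a lid subunit, had 163, 140 and 144 CPM with scramble and 164, 167 and 179 CPM with siRNA, which separated the conditions by about 1 CPM. Its log2 fold change was 0.19 (SE 0.12, adjusted p = 0.366 from edgeR). *PSMD13*, a further lid subunit, also separated (log2 fold change -0.14, adjusted p = 0.497 from edgeR).

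The ubiquitin receptor *PSMD4* (log2 fold change -0.02) and the deubiquitinase *PSMD14* (0.02) were among the genes nearest to 0, with *PSMD6* (-0.00) and *PSMD8* (-0.03) of the lid. *PSMD3* and *PSMD12* had log2 fold changes of 0.05 and -0.12. In 10 of these 11 genes the interval lay within 0.5 of 0, the exception being *PSMD7*. The summed level was 3826 ± 41.7 CPM with scramble and 3669 ± 179 CPM with siRNA (SD, n = 3), or 95.9% of scramble. That direction depends on the scaling: with library totals in place of TMM factors, an alternative added after seeing the data, it was 101.9% of scramble.

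Of the 7 assembly chaperones, none passed. *PSMG1* and *PSMG2* form a dimer that guides the alpha ring. *PSMG1* had 286, 250 and 260 CPM with scramble and 229, 248 and 259 CPM with siRNA, with overlap (log2 fold change -0.11, 95% interval -0.37 to 0.14). *PSMG2* had 129, 120 and 130 CPM with scramble and 97.5, 106 and 118 CPM with siRNA, without overlap (log2 fold change -0.24, SE 0.12, adjusted p = 0.259 from edgeR). The second alpha ring pair, *PSMG3* and *PSMG4*, had log2 fold changes of -0.16 and -0.12. *PSMD10* (gankyrin), a chaperone of the ATPase ring, had 36.2, 41.3 and 39.9 CPM with scramble and 52.0, 51.1 and 38.6 CPM with siRNA. siRNA replicate 3 alone lay within the scramble range, and the log2 fold change was 0.27 (SE 0.15, adjusted p = 0.313 from edgeR). *PSMD5* and *PSMD9*, also chaperones of the ATPase ring, had log2 fold changes of -0.04 and 0.17. *PSMD9*, the lowest of the class per length, had 9.38, 8.95 and 8.77 CPM with scramble and 6.79, 12.8 and 10.9 CPM with siRNA.

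Levels of different members were compared per kilobase of annotated exon. In the scramble libraries the highest was *PSMA7* at 1184 CPM per kb, followed by *PSMB7* at 788 and *PSMB4* at 460 CPM per kb. The median over tested members was 38.7 CPM per kb. Constitutive beta genes lay between 80.6 (*PSMB2*) and 788 CPM per kb, and the inducible *PSMB8* and *PSMB9* at 27.1 and 9.72 CPM per kb. Among the activators, *PSME1* stood at 200.5 and *PSME4* at 7.74 CPM per kb. With siRNA, *PSMA7* had 1182 and *PSMB7* 785 CPM per kb. With the length of the canonical transcript in place of all annotated exons, an alternative added after seeing the data, the median was 86.4 CPM per kb and some orders changed. *PSMB8* then stood at 83.8 CPM per kb, no longer under *PSMB2* at 82.5, with *PSMB9* at 31.9. On that scale *PSMC5* (246 CPM per kb) stood above *PSMC3* (134), *PSMD8* (521) above *PSMD2* (409.5), and *PSMD11* (38.7) below *PSMD1* (43.8).

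Subunits that occur in equal number in the finished particle did not have equal counted reads per kb. Whether their mRNA amounts differ as much was not tested, since the treatment of shared reads is not known. Within the alpha ring the level per kb ran from 1184 for *PSMA7* over 44.1, 39.2 and 26.6 for *PSMA1*, *PSMA5* and *PSMA3* to 0.727 for *PSMA4*, 0.234 for *PSMA2* and 0.0326 for *PSMA6*. *PSMA1* and *PSMA5* did not differ beyond their spread on this scale, but with canonical length *PSMA1*, *PSMA3* and *PSMA5* had 112.5, 86.4 and 58.9 CPM per kb, which puts *PSMA5* last of the 3. *PSMA7* stayed the highest and *PSMA6* the lowest of those with counts. Within the ATPase ring it ran from 90.7 for *PSMC3* to 1.52 for *PSMC6* and 0.448 for *PSMC1*. Of the low genes of these rings, all but *PSMA4* came with sequence or exons shared with other genes.

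**Figure D3:**
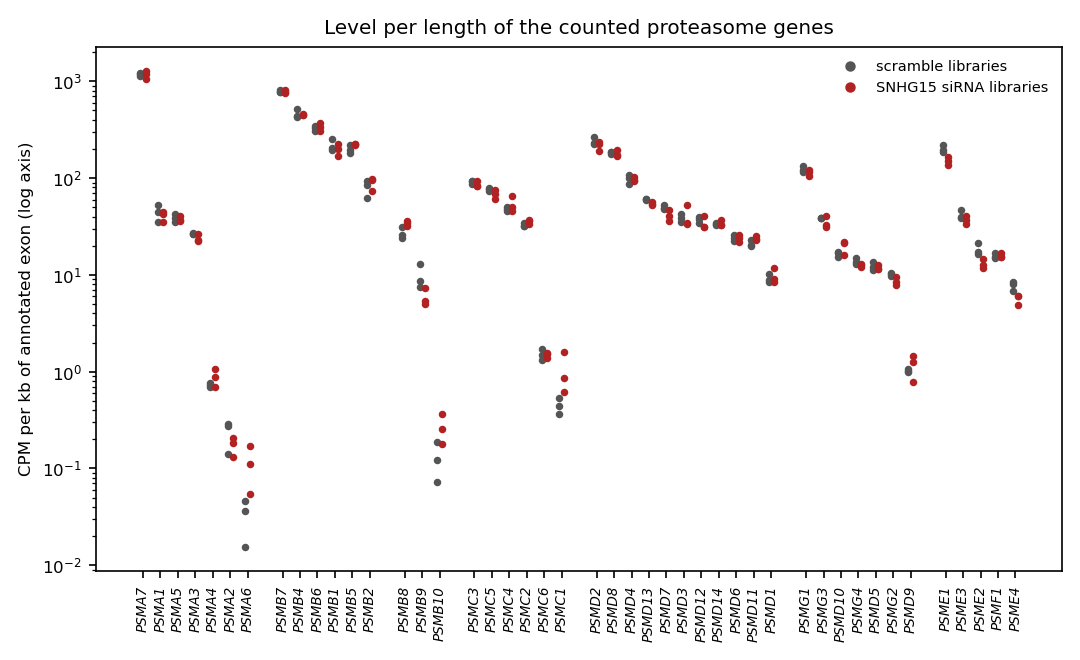
CPM per kilobase of annotated exon (log axis) of every member with counts, in the 3 scramble (grey) and 3 *SNHG15* siRNA (red) libraries, ordered within each sub-complex. *PSMA4*, *PSMA2* and *PSMA6* of the alpha ring and *PSMC6* and *PSMC1* of the ATPase ring lie far under the other constitutive genes of their rings in both conditions.

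Of 9 members with under 200 counts in every library, 5 had over 40% of their 31-base words elsewhere in the genome or over 50% of their canonical transcript under exons of other genes, against 4 of 38 other members (limits chosen after the values were seen). *PSMA2* is covered fully by other genes, chiefly a protein-coding gene on the same strand with at most 1 count in any library. *PSMA6* is covered to 81.4% by another protein-coding gene on its strand with 0 counts, and 46.3% of its words occur elsewhere. Its processed copies were read more than *PSMA6* itself, with 44 to 159 counts per library for *PSMA6P1* and 16 to 65 for *PSMA6P2*. In CPM, all siRNA libraries lay above all scramble libraries for *PSMA6* and for these copies. For *PSMA6* the closest pair was 1 count in scramble replicate 3 (0.302 CPM) against 3 counts in siRNA replicate 3 (0.352 CPM). Counts this low do not separate the conditions reliably. The log2 fold changes of *PSMA6P1* and *PSMA6P2* were 0.42 and 0.69 (adjusted p = 0.153 and 0.103 from edgeR). In *PSMC6*, 43.5% of the words occur elsewhere. *PSMA4* has 2.07% of its words elsewhere and no base under other exons, and yet only 16 to 54 counts, so neither measure moved with its low level. The part of shared sequence in the levels and fold changes of these genes was not tested. Among the members with more counts, *PSMA1* is covered to 67.03% by a same-strand gene with 0 counts and *PSMD7* to 51.6% by an opposite-strand noncoding gene with 2 to 8 counts per library.

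**Figure D4:**
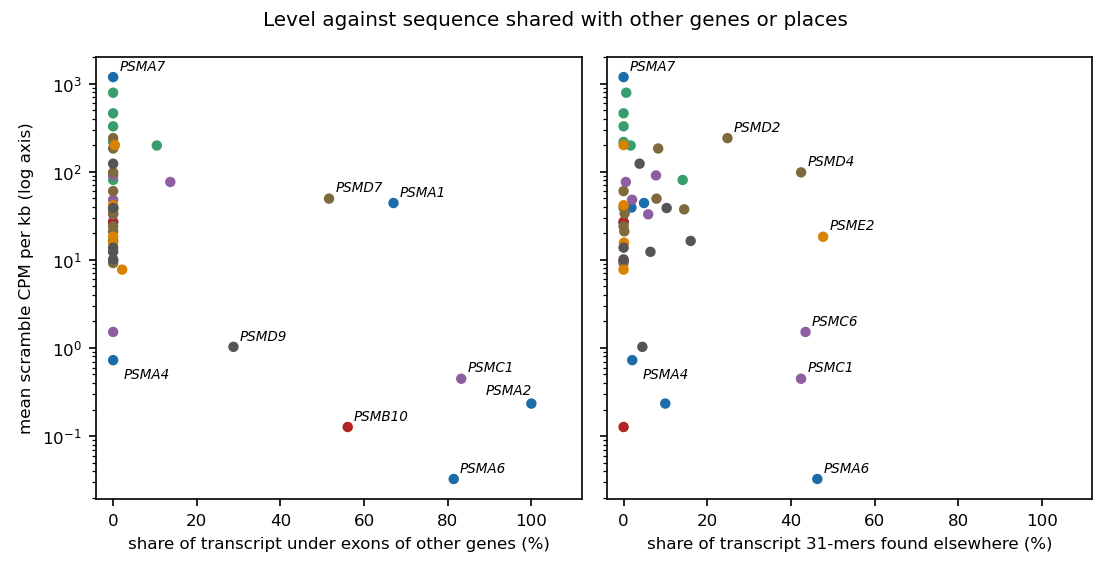
Mean scramble CPM per kilobase (log axis) of each member against the share of its canonical transcript under exons of other genes (left) and the share of its 31-base words found elsewhere in the genome (right), coloured by sub-complex as in the plot of fold changes. *PSMA6*, *PSMA2*, *PSMC1* and *PSMB10* are low and largely shared, *PSMA4* is low and not shared, and *PSMD4* and *PSMD2* are high with shared words.

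Genes that work with the proteasome were read from lists of 52 genes, of which 51 were tested. By edgeR's quasi-likelihood test 1 rose and 2 fell, and these 5.88% of the list lie near the 5.36% called over all genes. *SQSTM1*, the p62 receptor that binds ubiquitinated cargo, had 27.3, 28.4 and 27.5 CPM with scramble and 50.5, 49.9 and 43.8 CPM with *SNHG15* siRNA. It rose by 0.79 on the log2 scale (SE 0.14, adjusted p = 0.00740 from edgeR). *UBE3C*, a ubiquitin ligase bound to the proteasome that extends chains on its substrates, had 219 ± 20.2 CPM (SD, n = 3) with scramble and 148 ± 25.3 CPM (SD, n = 3) with siRNA, every siRNA library lying below. It fell, with a log2 fold change of -0.57 (SE 0.14, adjusted p = 0.0380 from edgeR). *CALR*, a chaperone that helps load peptides on MHC class I, had 268, 270.4 and 243 CPM with scramble and 194, 196 and 145 CPM with siRNA, and fell with a log2 fold change of -0.55 (SE 0.14, adjusted p = 0.0382 from edgeR). *SQSTM1* was called with each library left out (edgeR's adjusted p up to 0.0480). *UBE3C* was not called without any one of the scramble libraries or without siRNA replicate 3 (adjusted p up to 0.166), and *CALR* was called only without siRNA replicate 1 (0.0151, against 0.0678 to 0.149 without each of the others).

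By list, with the same 5.36% over all genes, 1 of 10 genes bound to the proteasome fell (*UBE3C*), 1 of 11 shuttle and p97 genes rose (*SQSTM1*), 1 of 14 class I presentation genes fell (*CALR*), and none of 10 tested genes of the *NFE2L1* pathway or of 6 ubiquitin and E1 genes passed. *POMP*, the maturation factor that brings the beta ring together, had a log2 fold change of 0.10 (95% interval -0.17 to 0.36). *SEM1*, a small lid subunit, had -0.09 (95% interval -0.38 to 0.19), and *ADRM1*, a ubiquitin receptor of the base, had 0.03 (95% interval -0.52 to 0.57). *NFE2L1* had 60.4, 83.4 and 57.2 CPM with scramble and 57.5, 50.3 and 50.5 CPM with siRNA, with overlap, and a log2 fold change of -0.35 (SE 0.16, adjusted p = 0.205 from edgeR).

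*HLA-B*, a class I heavy chain that interferon also induces and that is named here after its values were seen, had a log2 fold change of -0.54 (adjusted p = 0.0628 from edgeR) and did not pass. *TAP1*, which pumps proteasome products into the endoplasmic reticulum, had a log2 fold change of -0.18 (95% interval -0.58 to 0.21). Its annotated span lies within that of *PSMB9*, on the opposite strand.

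Promoter sequences were read for 41 of 47 members from RefSeq on GRCh38.p14, each with 250 bases before and 50 after the annotated start. They are given for the 4 members with the smallest p on the lower side and for *PSMB5*, a constitutive subunit, to set their sites side by side. The sequences reported here, searched on both strands, were the CCAAT box (CCAAT), a core of the antioxidant response element that *NFE2L1* and *NFE2L2* bind (TGACNNNGC or TGAGNNNGC), a core of the interferon-stimulated response element (GAAANNGAA) and the E-box (CACGTG). Capitals mark matches to any of them but the E-box, of which these 5 promoters have none. The *PSMB9* window is chr6:32853942-32854241 on the plus strand, that of *PSME1* chr14:24135944-24136243 on the plus strand, that of *PSME2* chr14:24146561-24146860 on the minus strand, that of *PSME4* chr2:53970944-53971243 on the minus strand and that of *PSMB5* chr14:23035171-23035470 on the minus strand, each printed in the direction of transcription.
PSMB9: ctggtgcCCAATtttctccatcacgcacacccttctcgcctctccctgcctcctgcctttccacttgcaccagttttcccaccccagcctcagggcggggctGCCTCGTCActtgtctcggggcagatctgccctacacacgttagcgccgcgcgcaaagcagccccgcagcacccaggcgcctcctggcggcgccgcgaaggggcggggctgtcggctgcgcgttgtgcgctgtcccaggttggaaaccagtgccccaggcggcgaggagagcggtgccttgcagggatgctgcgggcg
PSME1: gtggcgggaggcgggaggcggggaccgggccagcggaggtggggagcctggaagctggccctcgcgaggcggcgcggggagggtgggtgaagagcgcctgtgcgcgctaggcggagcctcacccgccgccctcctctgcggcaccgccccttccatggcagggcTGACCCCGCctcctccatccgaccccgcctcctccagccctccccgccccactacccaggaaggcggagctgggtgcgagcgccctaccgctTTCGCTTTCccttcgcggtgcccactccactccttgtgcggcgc
PSME2: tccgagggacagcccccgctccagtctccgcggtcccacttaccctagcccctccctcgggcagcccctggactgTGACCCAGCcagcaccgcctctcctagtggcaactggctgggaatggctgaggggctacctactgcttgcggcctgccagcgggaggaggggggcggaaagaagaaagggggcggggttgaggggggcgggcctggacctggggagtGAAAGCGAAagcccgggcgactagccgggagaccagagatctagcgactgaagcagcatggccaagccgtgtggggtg
PSME4: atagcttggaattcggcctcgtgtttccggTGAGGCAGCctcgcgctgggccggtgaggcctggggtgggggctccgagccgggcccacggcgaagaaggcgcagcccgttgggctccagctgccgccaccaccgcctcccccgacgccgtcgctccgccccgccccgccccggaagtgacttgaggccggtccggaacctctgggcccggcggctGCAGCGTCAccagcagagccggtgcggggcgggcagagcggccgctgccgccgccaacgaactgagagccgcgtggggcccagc
PSMB5: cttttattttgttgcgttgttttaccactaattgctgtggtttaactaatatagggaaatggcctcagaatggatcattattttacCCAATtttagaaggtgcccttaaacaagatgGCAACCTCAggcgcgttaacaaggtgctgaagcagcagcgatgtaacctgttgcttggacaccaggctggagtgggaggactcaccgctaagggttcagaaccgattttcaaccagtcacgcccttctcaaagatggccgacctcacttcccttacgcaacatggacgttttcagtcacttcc

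*PSME1* and *PSME2* each had 1 match to the interferon-stimulated core, from base 7 of the transcript in *PSME1* and from base -28 in *PSME2*. The same core was found in *PSMA4*, *PSMB4*, *PSMC2* and *PSMG4*, with log2 fold changes of 0.27, -0.03, 0.11 and -0.12. It was also found in *PSMB10*, which was not tested. *PSMB9* and *PSMB5* each had 1 CCAAT box and 1 antioxidant core, and no interferon core. *PSME4* had 2 antioxidant cores. The promoter of *PSMB8* held none of the sequences searched. Over all members matched, 19 of 41 (46.3%) had an antioxidant core, against 29.4% of 27305 promoters of the same length, 18 of 41 (43.9%) a CCAAT box against 35.7%, 7 of 41 (17.1%) an interferon core against 8.29% and 2 of 41 (4.88%) an E-box against 7.43%. *PSMA5* had the most antioxidant cores of the members, 4, and a log2 fold change of -0.06. The 27305 promoters were matched to the members in length only, not in gene type or GC content, and the shares were not tested. A match describes these letters and says nothing of binding.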

How the data were processed

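RNA-seq counts of 3 scramble and 3 *SNHG15* siRNA libraries of LoVo cells were analysed. Per the labels, libraries were made with a stranded mRNA kit and read as 75 bp pairs. What the authors deposited are raw read counts for each gene, not normalized. The methods of the study name bowtie2 and hg19, while the submitters' processing notes name STAR, featureCounts and hg19. For differential expression those methods name DESeq2, which was run here as an alternative to edgeR. The annotation, the strand setting and the treatment of reads with several placements are not given in the sources used here, so genes that share sequence or exons with others are uncertain. The methods give a Maxwell kit for RNA and the labels TRIzol.

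Genes were named and placed with GENCODE release 44 on GRCh37, in which 8012 of 63677 identifiers had no entry. Of the rows, 23675 had counts, and edgeR 4.0.16 (R 4.3.3) tested 12507 after filterByExpr (minimum count 10, total 15) with TMM scaling, whose factors lay between 0.961 and 1.06, the quasi-likelihood test on all 6 libraries without a block, and Benjamini-Hochberg adjustment over all genes tested at 0.05. SEs came from the fold change and its F. CPM are counts scaled by library total and TMM factor. Each pair of replicates differed beyond sampling noise (chi-square per degree of freedom at least 4.18). P-values measure the spread between these libraries only. Levels per length used the union of annotated exons. Words of 31 bases of each canonical transcript were sought in GRCh37 on both strands.

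Members and lists were chosen with earlier results of these data known, and the lists support no direction. All members were accounted for. Per-library values were given for the 4 smallest p in each direction, the highest and lowest level per length of each sub-complex, the inducible genes with their constitutive partners, and untested members. A further promoter motif was searched and is not reported here. Partner genes past the threshold were named, with *NFE2L1*, *POMP*, *SEM1* and *ADRM1*. Alternatives were DESeq2 1.42.0, RLE and upper-quartile scaling, no filter, a minimum of 10 counts in each library, only protein-coding genes, a loess offset for GC content (span 0.3), a replicate block alone and together with that offset, and leaving out each library. In simulated counts of the same comparison with 200 genes changed by 1 on the log2 scale, edgeR recovered 156 of 200 with 10 false calls over 12372 genes, and DESeq2 141 of 200 with 6 over 11537 genes.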

Additional observations from a re-analysis of the deposited data

How the results depend on the processing

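The count of members past an adjusted p of 0.05 was 0 in the reported fit and with RLE or upper-quartile scaling, a minimum of 10 counts in each library, only protein-coding genes and the GC offset. It was 3 with DESeq2 (0 higher, 3 lower), 5 without a filter (1 higher, 4 lower), and 0 to 3 when a library was left out (0 to 1 higher, 0 to 3 lower). Over the whole table, 671 genes became 1312 without a filter and 139 to 812 when a library was left out. Partner genes past the threshold, 3, became 5 without a filter, 1 with 10 counts in every library, and 1 to 4 when a library was left out. The members' median log2 fold change was 0.0006753 with upper-quartile scaling and between -0.06594 and -0.02299 when a library was left out. For single members, 630 of 643 values kept their side of the threshold and 13 became called. None of the 6 members with an unadjusted p under 0.05 changed sign, and 17 of the other 37 did in at least 1 alternative.

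The replicate number as a block gave 0 members and 543 genes. With the GC offset it gave 1 member, *PSME4*, lower, and 665 genes. Replicates with the same number deviated together with correlations of -0.07, 0.155 and -0.04, and those with different numbers with -0.166 to 0.145. Deviations from the mean of only 3 libraries per group cannot settle whether the numbers pair the libraries. No source ties a number to a shared culture. With library totals in place of TMM factors, added after seeing the data, summed levels became 106.9% of scramble in the constitutive beta ring and 105.7% in the ATPases. They became 101.9% in the other 19S genes, 98.77% in the chaperones and 88.06% in the activators. The alpha ring went from 98.8% to 105.1% and the inducible beta genes from 109% to 115.9%. With canonical transcript length, also added later, the median level per kb was 86.4 in place of 38.7. The cause of these shifts was not tested. Depth limits *PSMA2*, *PSMA4*, *PSMA6*, *PSMB10*, *PSMC1* and *PSMD9*, each under 100 counts in every library, and *PSMA8* and *PSMB11*, at 0 counts.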
